A study of Homo sapiens with 18 samples.

Results

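Proteoglycans are proteins that carry long sulfated sugar chains and stand at the surface of a cell or in the matrix around it. The 8 genes described here are the 4 syndecans SDC1, SDC2, SDC3 and SDC4, the glypican GPC1, the basement membrane proteoglycans AGRN (agrin) and HSPG2 (perlecan), and CD44, the main receptor of hyaluronan. They were taken from a fixed list of symbols, chosen with earlier results of these data known. They make up 8 of the 58302 genes in the expression table. All 8 passed the filter on low values that left 12982 genes for testing.

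The cells were PANC-1, a line from a human pancreatic ductal carcinoma, carrying by lentivirus either a vector that the labels call an empty shRNA vector (shCtrl) or a vector with a stable short hairpin RNA against NAT10 (shNAT10, NAT10 knockdown or KD). NAT10 is the enzyme that writes N4-acetylcytidine (ac4C) on RNA. RNA-seq covered 3 libraries per group, and acRIP-seq, in which RNA fragments are pulled down with an antibody against ac4C, covered 3 immunoprecipitated (IP) and 3 input libraries per group but was deposited as 1 peak list per group. The study also lists a non-targeting shRNA among its reagents, and which of these shCtrl carried is not settled here. The labels do not say whether replicates came from separate cultures or how many hairpins or clones stand behind shNAT10, so the p-values measure the spread between these libraries and cannot separate NAT10 from a property of this hairpin or line.

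Heparan sulfate chains are built on a linker on the core protein, are then sulfated in the Golgi, and hold growth factors such as FGFs next to their receptors. Syndecans span the membrane, and their ectodomains can be cut off and released by metalloproteases. Glypicans are held by a lipid anchor, whereas agrin and perlecan are secreted into basement membranes, where they bind laminin, nidogen and dystroglycan. CD44 binds hyaluronan outside the cell and ERM proteins inside it, and carries sugar chains on some of its splice forms. Syndecan-1, glypican-1 and CD44 have long been studied in pancreatic cancer cells.

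The knockdown was visible in every library. NAT10 was measured at 31.6, 27.7 and 28.6 FPKM (fragments scaled to gene length and to the reads of the library) in shCtrl replicates 1 to 3 and at 7.92, 8.43 and 7.90 FPKM in the shNAT10 libraries, a log2 fold change of -1.84 (SE 0.08, adjusted p = 3.85e-05). Reads on genes numbered between 15831720 and 23521762 per library, as recovered from the FPKM steps. Of 6 epithelial and ductal marker genes all passed the filter. KRT8, KRT18, KRT19 and KRT7 fell (log2 fold change between -1.18 and -0.83), EPCAM rose (2.20, SE 0.13), and CDH1 did not pass the test (0.33, adjusted p = 0.111). None of the 4 endothelial and none of the 5 Schwann and nerve markers passed the filter, and PTPRC, CD3E, DCN and LUM lay at or near 0. The summed FPKM of the 6 fibroblast markers was 29.8 to 35.4 in shCtrl and 18.0 to 21.8 in shNAT10, nearly all of it COL1A1, and that of the 5 leukocyte markers was 2.21 to 2.93 and 1.41 to 1.56, nearly all of it CD14. The part of these markers in the results below was not tested. In whole cultures a shift in the make-up of the cells and a change of RNA per cell cannot be told apart.

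Of the 8 genes, 6 rose in NAT10-KD cells at an adjusted p under 0.05 and 0 fell, in the limma fit across all tested genes. The count that rose was 3 without shCtrl replicate 3 or without shNAT10 replicate 1, and then held SDC1, SDC4 and AGRN. The count that fell was also 0 at an unadjusted p under 0.05 and by voom on the recovered reads. In the same fit 20.8% of the 12982 tested genes rose and 21.2% fell. The median log2 fold change was 0.33 over the 8 genes and -0.01 over all tested genes. As the 8 genes were chosen with earlier results of these data known, these comparisons are descriptions only. Rescaling to TPM, in which every library has the same sum, shifted the median of all genes by 0.11, to 0.10, so that 25.8% of genes rose and 16.0% fell, and the same count of 6 of the 8 genes rose under it. All 3 shNAT10 values stood above all 3 shCtrl values for 6 of the 8 genes, against 27.9% of all tested genes. With 3 libraries per group an exact permutation test of a single gene cannot give a two-sided p below 0.1, which these 6 genes reached.

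SDC1 (ENSG00000115884, chr2:20200797-20225433, minus strand, GRCh38), the main syndecan of epithelial cells, changed most among the 8. Its level was 17.0, 20.5 and 17.7 FPKM in shCtrl replicates 1 to 3 and 38.5, 38.7 and 37.0 FPKM in shNAT10 replicates 1 to 3. The groups stood far apart, with the lowest KD library well above the highest control library. The log2 fold change was 1.05 (SE 0.09, 95% interval 0.85 to 1.25, adjusted p = 0.000231), that is 2.07 times the control mean. A larger rise was found for 366 of the tested genes (2.82%), and SDC1 alone among the 8 passed both the test and a log2 fold change of 1, as did 2.91% of all tested genes. Without shCtrl replicate 1 its log2 fold change was 0.995 and still passed the test.

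SDC4 (ENSG00000124145, chr20:45325288-45348424, minus strand), the syndecan found in focal adhesions, was measured at 19.0, 20.2 and 19.0 FPKM in shCtrl and at 28.8, 28.4 and 29.8 FPKM in shNAT10. The 3 libraries of each group lay close together and the groups did not overlap. Its log2 fold change was 0.58 (SE 0.06, 95% interval 0.43 to 0.73, adjusted p = 0.000657). SDC2 (ENSG00000169439, chr8:96493351-96611780, plus strand), a syndecan common in mesenchymal cells, had lower and closer values, with 9.63, 9.95 and 10.3 FPKM in shCtrl and 11.9, 11.5 and 12.9 FPKM in shNAT10. The groups did not overlap, and the rise was small (log2 fold change 0.28, SE 0.07, adjusted p = 0.0230). It no longer passed the test without shCtrl replicate 3 or without any 1 of the shNAT10 libraries, with adjusted p between 0.0516 and 0.0967.

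SDC3 (ENSG00000162512, chr1:30869467-30908761, minus strand), the syndecan best known from nerve tissue, was the flattest of the 8 genes. It stood at 11.9, 12.1 and 12.0 FPKM in shCtrl and at 11.9, 11.6 and 12.0 FPKM in shNAT10. The values of the groups overlapped, and the log2 fold change of -0.02 (SE 0.06, adjusted p = 0.779) had a 95% interval from -0.17 to 0.12. This interval does not reach the rise of SDC4 or SDC1. On the TPM scale the difference of SDC3 was 0.08, below the median of all genes on that scale, again without passing the test (adjusted p = 0.388).

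**Figure D1:**
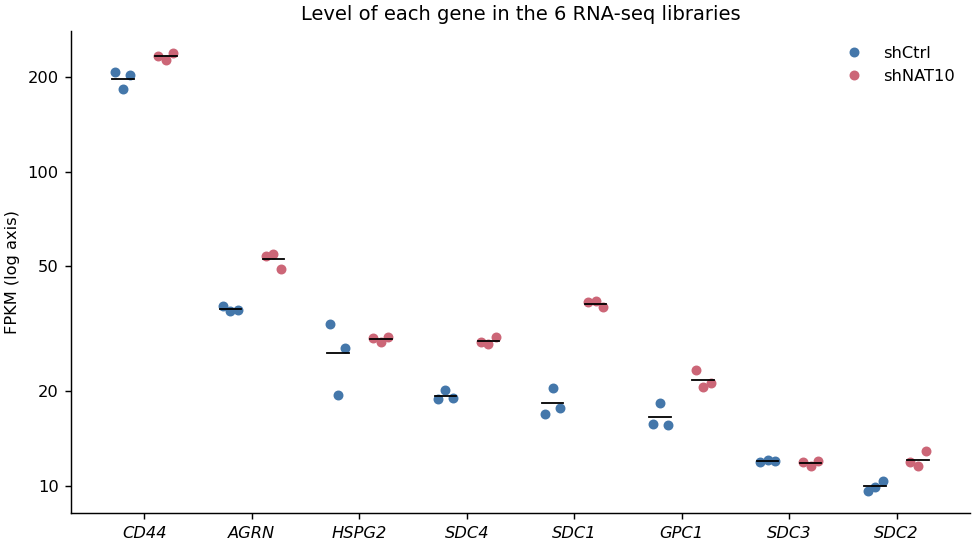
Level of the 8 genes in FPKM (log axis) in the 3 shCtrl and 3 shNAT10 RNA-seq libraries. Each point is a library and each line a group mean. SDC1 moves from among SDC4 and GPC1 in shCtrl to above HSPG2 in shNAT10, and the shCtrl values of HSPG2 spread from 19.4 to 32.7.

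The 4 syndecans thus moved unequally, and their make-up shifted. Since FPKM are per length, levels of different genes can be added within a library. The summed syndecan level rose from 57.5, 62.7 and 59.0 FPKM in shCtrl to 91.1, 90.1 and 91.7 FPKM in shNAT10, without overlap. SDC1 made up 29.5%, 32.7% and 29.9% of this sum in shCtrl and 42.3%, 42.9% and 40.4% in shNAT10. The group means were 30.7% ± 1.75 and 41.8% ± 1.31 (SD, n = 3 and 3), a gain of 11.1 percentage points (exact permutation p = 0.1, the smallest possible with 3 against 3).

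The share of SDC3 went from 20.1% ± 0.807 to 13.0% ± 0.131 (SD, n = 3 and 3), with no overlap, while its own level did not pass the test. SDC2 held 16.7% ± 0.829 of the sum in shCtrl and 13.3% ± 0.685 in shNAT10, so that its share was lower although its level rose. SDC4 held 32.5% ± 0.441 and 31.9% ± 0.544, a difference of -0.58 percentage points (exact permutation p = 0.3) in groups that overlapped. The log2 ratio of SDC1 over SDC4 went from -0.08 ± 0.09 to 0.39 ± 0.07 (SD, n = 3 and 3). In shCtrl the ranges of SDC1 and SDC4 overlapped, and in shNAT10 every SDC1 value was above every SDC4 value.

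**Figure D2:**
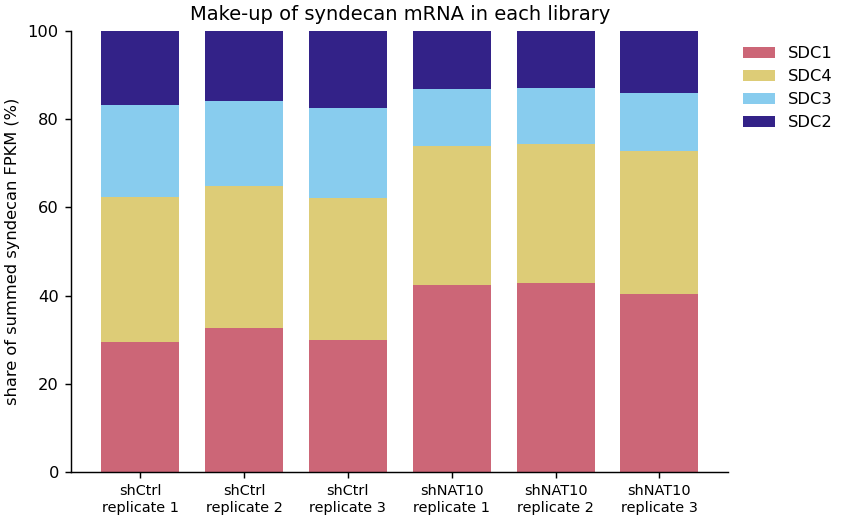
Share of SDC1, SDC4, SDC3 and SDC2 in the summed syndecan FPKM (%) of each RNA-seq library, as stacked bars from 0 to 100%. The SDC1 segment covers about 30.7% in shCtrl and 41.8% in shNAT10 on average, and the SDC3 segment 20.1% and 13.0%.

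GPC1 (ENSG00000063660, chr2:240435671-240468078, plus strand) alone among the 6 glypicans had a level near that of the syndecans. It was measured at 15.7, 18.4 and 15.7 FPKM in shCtrl and 23.4, 20.7 and 21.2 FPKM in shNAT10. Every KD library was above every control library, although shCtrl replicate 2 came close to the lowest KD value. The log2 fold change was 0.39 (SE 0.09, 95% interval 0.18 to 0.61, adjusted p = 0.0133). Without shCtrl replicate 3 or shNAT10 replicate 1 the adjusted p was 0.0551 and 0.0578.

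AGRN (ENSG00000188157, chr1:1020123-1056118, plus strand), which encodes agrin, the organiser of acetylcholine receptors at the neuromuscular synapse, stood at 37.4, 36.0 and 36.4 FPKM in shCtrl. In shNAT10 it stood at 54.0, 54.6 and 49.2 FPKM, so the groups were well separated. The log2 fold change was 0.52 (SE 0.07, 95% interval 0.36 to 0.68, adjusted p = 0.00121), and it passed the test in each of the 16 alternative settings, as did SDC1 and SDC4. Of its exon bases, 3.74% are shared with AL645608.5 on the same strand, a gene listed at 0 in all 6 libraries.

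HSPG2 (ENSG00000142798, chr1:21822245-21937297, minus strand), which encodes perlecan, did not pass the test. It was measured at 32.7, 19.4 and 27.4 FPKM in shCtrl and at 29.7, 28.8 and 29.8 FPKM in shNAT10. The 3 KD values were nearly equal and lay within the spread of the controls. The log2 fold change was 0.18 (SE 0.17, 95% interval -0.23 to 0.59, adjusted p = 0.436), and without shCtrl replicate 2 it turned to -0.03 (adjusted p = 0.803). Without shCtrl replicate 1 it was 0.35 (adjusted p = 0.0863). These 2 libraries deviated from the group mean in opposite directions by transcript length. For the 946 tested genes with a transcript over 8 kb the median deviation of replicate 2 was -0.30 on the log2 scale, and that of replicate 1 was 0.23. For the 3263 genes under 2 kb it was 0.20 in replicate 2 and -0.14 in replicate 1. The HSPG2 mRNA has 14327 bases, the longest of the 8, and the part of these deviations in the HSPG2 values was not tested. LDLRAD2, which overlaps 11.7% of its exon bases on the opposite strand, lay at 0.106 FPKM or less.

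CD44 (ENSG00000026508, chr11:35138870-35232402, plus strand) had the highest level of the 8 by far. Its values were 208, 184 and 203 FPKM in shCtrl and 234, 227 and 239 FPKM in shNAT10, resting on 16541 to 21885 reads per library. The groups did not overlap, and the mean was 17.8% higher in KD cells (log2 fold change 0.24, SE 0.07, 95% interval 0.07 to 0.40, adjusted p = 0.0300). The call was lost without shCtrl replicate 3 or any 1 shNAT10 library (adjusted p 0.0754 to 0.119), without the expression filter (0.0932), without the mean-variance trend (0.0527), and once transcript length and GC content were corrected for in each library (0.0510), which also brought the log2 fold change to 0.11. The values sum over all splice forms, so the standard and the variant forms of CD44 cannot be told apart in them. CD44-AS1, which overlaps 0.84% of its exon bases on the opposite strand, lay at 2.27 to 2.85 FPKM.

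**Figure D3:**
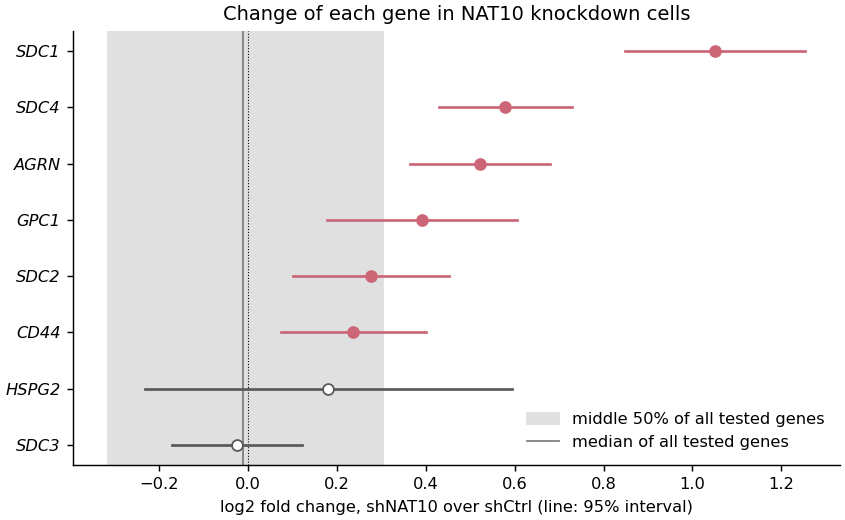
Log2 fold change of each gene, shNAT10 over shCtrl, with its 95% interval from limma (n = 3 and 3). Filled points passed an adjusted p of 0.05, open points did not, the grey band holds the middle 50% of all tested genes (-0.31 to 0.30) and the grey line their median. SDC1, SDC4, AGRN and GPC1 lie to the right of the band.

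In shCtrl the order of the levels was CD44, AGRN, HSPG2, SDC4, SDC1, GPC1, SDC3 and SDC2, with CD44 5.42 times above AGRN. HSPG2 and SDC4, SDC4 and SDC1, and SDC1 and GPC1 overlapped in their ranges and cannot be ordered, while the other neighbours did not overlap. In shNAT10 the order was CD44, AGRN, SDC1, HSPG2, SDC4, GPC1, SDC2 and SDC3. SDC1 now ranked 3, 1.29 times above HSPG2 and apart from it. HSPG2 and SDC4 overlapped, and so did SDC2 and SDC3, which had been apart in shCtrl. The 8 genes together rose from a summed 338 ± 15.6 to 428 ± 5.84 FPKM (SD, n = 3 and 3), of which CD44 held 58.7% ± 1.10 and 54.5% ± 0.819.

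The genes that make, sulfate, trim, shed or bind these proteins were read from 10 role lists with 125 genes, of which 75 passed the filter. The role lists too were chosen with earlier results of these data known. Of these 75, 15 rose and 20 fell, with a median log2 fold change of -0.11, against 20.8% of all tested genes that rose and 21.2% that fell. The heparan sulfate assembly list had 10 tested genes of 12, of which 2 rose and 1 fell. EXTL3, which starts the heparan sulfate chain on the linker, rose from 2.59 ± 0.293 to 6.46 ± 0.00489 FPKM (SD, n = 3 and 3), a log2 fold change of 1.29 (SE 0.10, adjusted p = 0.000226). FAM20B, the kinase that phosphorylates the xylose of the linker, rose by 0.38 on the log2 scale (adjusted p = 0.00557), and B3GAT3, which adds the last sugar of the linker, fell by 0.61 (adjusted p = 0.0216). EXT1 and EXT2, the polymerase of the chain, were measured at 8.34 and 8.84 FPKM and at 27.7 and 25.1 FPKM and did not pass the test. The call of B3GAT3 was lost without the filter and without shCtrl replicate 3 or any 1 shNAT10 library (adjusted p 0.0533 to 0.0786), and its log2 fold change lay between -0.76 and -0.36 over all settings.

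Of 16 sulfation and epimerization genes 5 passed the filter, and 0 rose or fell. The count at an unadjusted p under 0.05 in limma was also 0, and so was the count by voom on the recovered reads. With transcript length and GC content corrected for in each library 2 fell, NDST1 and HS2ST1, and without shCtrl replicate 2 NDST1 fell. NDST1, HS2ST1, HS6ST1 and GLCE carried most of this level, and the 3-O-sulfotransferases other than HS3ST6 lay at a mean of 0.163 FPKM or less in both groups. The supply of donors was mixed, with all 8 genes tested, 2 higher and 3 lower. PAPSS2, an enzyme that makes the sulfate donor PAPS, fell from 5.93 ± 0.327 to 1.55 ± 0.0938 FPKM (SD, n = 3 and 3), a log2 fold change of -1.87 (SE 0.10, adjusted p = 5.96e-05), whereas its relative PAPSS1 did not pass the test (-0.13, adjusted p = 0.207). SLC35D1, a transporter of nucleotide sugars, and UXS1, which makes the xylose donor, fell by 0.58 and 0.28 on the log2 scale. SLC26A2, a sulfate importer, and SLC35B2, the PAPS transporter of the Golgi, rose by 0.52 and 0.37. Calls of SLC35D1, UXS1, SLC26A2 and SLC35B2 were lost without shCtrl replicate 3 and without shNAT10 replicate 1 or 2, those of SLC35D1, UXS1 and SLC26A2 also without shNAT10 replicate 3, and that of SLC35D1 without shCtrl replicate 1, with adjusted p from 0.0550 to 0.139 over the libraries whose removal ended a call. The calls of UXS1 (adjusted p = 0.0530) and SLC35D1 (0.134) were also lost on the TPM scale, and those of SLC35D1 and SLC26A2 without the filter or the mean-variance trend. SLC26A2 also lost its call under quantile normalization (adjusted p = 0.0557), and without shCtrl replicate 2 its rise was 0.32 (adjusted p = 0.0118).

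The breakdown list went mostly down. Of its 12 genes 8 were tested and 5 fell, with a median log2 fold change of -0.42. IDUA, a lysosomal enzyme that removes iduronic acid, went from 7.80 ± 0.252 to 3.91 ± 0.567 FPKM (SD, n = 3 and 3), a log2 fold change of -0.99 (SE 0.12, adjusted p = 0.000830). HPSE, the heparanase that cuts the chains, fell by 0.87 (adjusted p = 0.00132), and SGSH, the lysosomal sulfamidase, fell by 0.65 (adjusted p = 0.00258). The other 2 that fell were IDS and HGSNAT, named after their values were seen, and IDS lost its call on the TPM scale (adjusted p = 0.0590). SULF1 and SULF2, the sulfatases that edit chains at the cell surface, lay at 0.272 FPKM or less.

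The list of sheddases and their inhibitors had 7 tested genes of 10, of which 5 fell and 0 rose (also 0 at an unadjusted p under 0.05 in limma and by voom, but 1, MMP16, without shCtrl replicate 1), with a median log2 fold change of -0.45. ADAM17, a metalloprotease that releases many ectodomains, went from 15.0 ± 2.92 to 6.38 ± 0.278 FPKM (SD, n = 3 and 3), a log2 fold change of -1.20 (SE 0.14, adjusted p = 0.000955). ADAM10, its close relative, fell by 0.77 (SE 0.14, adjusted p = 0.00480). TIMP1, a metalloprotease inhibitor and not a sheddase, fell by 1.21 (SE 0.15, adjusted p = 0.00103). The 2 further genes that fell, MMP2 and the inhibitor TIMP2, are named after their values were seen. MMP14, a membrane protease that cuts CD44, was measured at 1.84 and 2.01 FPKM and did not pass the test. The same count of 5 genes fell in each of the 16 alternative settings.

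Hyaluronan genes, which concern CD44, split. Of 14 listed genes 6 were tested, 2 rose and 1 fell. HAS2, a hyaluronan synthase, rose from 4.34 ± 0.634 to 13.1 ± 0.603 FPKM (SD, n = 3 and 3), a log2 fold change of 1.58 (SE 0.12, adjusted p = 0.000163). HAS3, a second synthase, fell by 0.70 (SE 0.12, adjusted p = 0.00411), so that the log2 ratio of HAS2 over HAS3 went from 0.78 ± 0.17 to 3.11 ± 0.06 (SD, n = 3 and 3). HMMR, a hyaluronan-binding protein that also works at the mitotic spindle, rose by 1.34 on the log2 scale (SE 0.08, adjusted p = 8.38e-05). HAS1 was listed at 0 in both groups, and the degrading enzyme HYAL2 did not pass the test (-0.12, adjusted p = 0.487).

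Among 12 genes for cytoplasmic partners 11 were tested, 3 rose and 3 fell. MSN (moesin) and EZR (ezrin), which tie CD44 and syndecans to actin, rose by 0.48 (SE 0.08, adjusted p = 0.00306) and 0.28 (SE 0.06, adjusted p = 0.0137) on the log2 scale. TIAM1, a Rac activator that binds syndecan-1 and CD44, rose by 0.55 (adjusted p = 0.0264). NF2 (merlin), which binds the tail of CD44 and restrains growth, fell from 18.0 ± 0.348 to 9.11 ± 0.359 FPKM (SD, n = 3 and 3), a log2 fold change of -0.98 (SE 0.07, adjusted p = 0.000123). SDCBP (syntenin), the scaffold of syndecan tails, and SDCBP2 fell by 0.32 and 0.91. EZR, TIAM1 and SDCBP2 lost their calls without shCtrl replicate 3 and without shNAT10 replicates 2 or 3, EZR and TIAM1 also without shNAT10 replicate 1, and TIAM1 without the filter, with adjusted p from 0.0522 to 0.0910.

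Of other heparan sulfate proteoglycans 6 of 9 were tested. TGFBR3 (betaglycan) rose by 0.63 and GPC2 fell by 0.55 on the log2 scale, the latter at 1.33 and 0.881 FPKM, and COL18A1, the most abundant of the list, stood at 200 and 204 FPKM (adjusted p = 0.804). GPC2 lost its call without any 1 of the 6 libraries (adjusted p 0.0681 to 0.123) and kept it in 4 of the 15 settings in which it was tested. TGFBR3 lost its call without shCtrl replicate 3, shNAT10 replicate 1 or 3, or the filter (adjusted p 0.0553 to 0.0772). Of 16 other proteoglycans only 3 were tested, of which CSPG5 rose (0.74, adjusted p = 0.00580) and SPOCK2 fell (-1.03, adjusted p = 0.00678). Versican, decorin, biglycan and lumican (VCAN, DCN, BGN, LUM), typical of stroma, lay at 0.0438 FPKM or less.

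Among 16 ligands and co-receptors 11 were tested, 3 rose and 0 fell in limma (2 fell at an unadjusted p under 0.05, and 1 by voom, without the mean-variance trend, or without shCtrl replicate 1). NID1 (nidogen), which binds perlecan and laminin, rose from 35.5 ± 4.82 to 57.2 ± 3.04 FPKM (SD, n = 3 and 3), a log2 fold change of 0.69 (SE 0.11, adjusted p = 0.00279). DAG1, which encodes dystroglycan, a receptor of agrin and perlecan, rose by 0.64 (SE 0.08, adjusted p = 0.00107). FGFR3, whose ligands need heparan sulfate, rose by 1.65 (SE 0.15, adjusted p = 0.000334) from 0.955 to 3.23 FPKM. LRP4, the agrin receptor of the synapse, did not pass the test (-0.27, adjusted p = 0.273), and MUSK was listed at 0 in both groups.

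**Figure D4:**
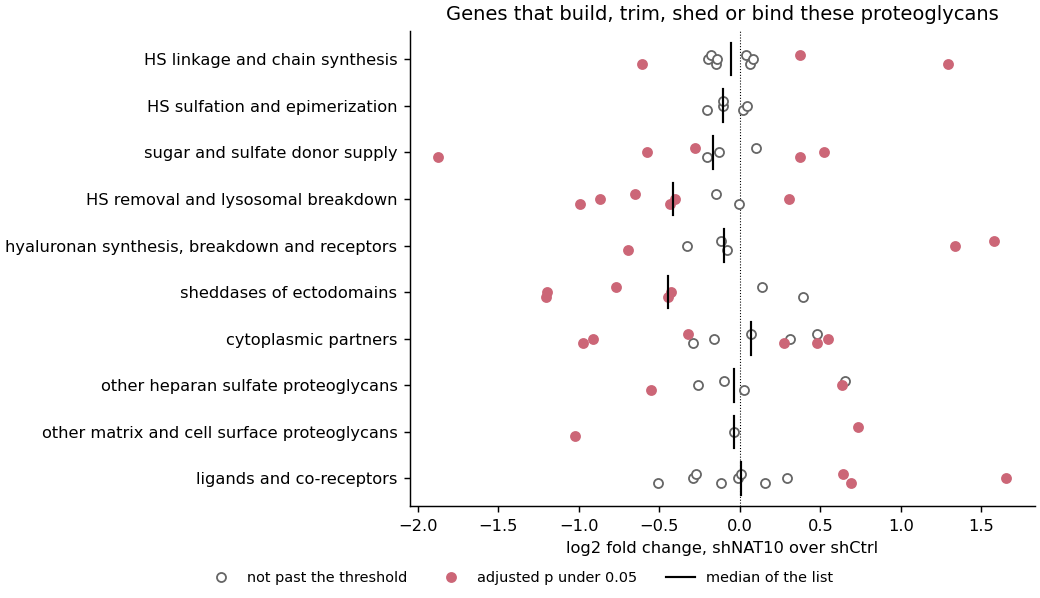
Log2 fold change, shNAT10 over shCtrl, of each of the 75 tested genes of 10 role lists. Filled points passed an adjusted p of 0.05, open points did not, and the black bar is the median of the list (-0.45 for sheddases and inhibitors, -0.42 for heparan sulfate removal).

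In acRIP-seq, 23 of the 16892 shCtrl peaks and 24 of the 15813 shNAT10 peaks were assigned to the 8 genes. A peak is a stretch of RNA enriched in IP over input, and each comes with the fold enrichment that the peak caller gave. As the lists pool the replicates, no difference between them can be tested, and the reads behind a peak are not known. Each list had peaks on 7 of the 8 genes, against 55.5% and 53.7% of the 11017 tested coding genes. In shCtrl that share ran from 41.4% for mRNAs under 2 kb to 73.6% for mRNAs over 8 kb. Neither these shares nor the mean peak numbers below were matched for expression level. SDC3 had a peak in shCtrl alone and GPC1 in shNAT10 alone.

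AGRN and HSPG2 held most of the peaks, 16 of 23 in shCtrl and 13 of 24 in shNAT10. AGRN, with an mRNA of 7394 bases, had 9 and 6 peaks, and tested genes with mRNAs of 5 to 8 kb had on average 1.71 and 1.53. HSPG2 had 7 in each list, where genes with mRNAs over 8 kb had 2.14 and 2.00. That class has no upper bound, and HSPG2, with 14327 bases, was not matched for length within it. The SDC2 mRNA, of 3759 bases, had 3 and 5 peaks against means of 1.12 and 1.07 for mRNAs of 2 to 5 kb. SDC1, SDC4, SDC3 and GPC1 had at most 1 peak in a list, and CD44, whose mRNA is the most abundant, had 1 and 3.

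Few of the places were the same in both lists. Of the 23 shCtrl peaks 6 (26.1%) overlapped a shNAT10 peak by at least 1 base, and of the 24 shNAT10 peaks 7 (29.2%) overlapped a shCtrl peak, near the 25.6% and 27.4% of all peaks. With a reciprocal overlap of 50% 2 peaks of each list remained, both on SDC2, where 12.7% and 13.6% of all peaks remained. The AGRN and HSPG2 lists shared 1 stretch each. By fold enrichment the peaks were modest, since 8 of 23 and 7 of 24 lay in the upper 50% of their list. By p-value 13 of 23 and 9 of 24 lay in the 50% with the lowest values.

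SDC2 carried the strongest peaks of the 8 genes. Its shCtrl peaks had fold enrichments of 187 in the 5′ UTR, of 62.7 over exons 2 to 5, and of 929 in the 3′ UTR. In shNAT10 the 5′ UTR peak had 134, a peak over exons 4 and 5 had 37.8, and peaks in the 3′ UTR had 1240, 2210 and 299. All 3 shCtrl peaks were overlapped in shNAT10, and the last 3′ UTR peak had no counterpart. The peak with a fold of 2210 stood at the 97.5 percentile of its list. SDC1 had a peak in the 3′ UTR in each list, with folds of 40.0 and 35.5, but their midpoints were 569 bases apart and they did not overlap. The SDC3 peak, in the 3′ UTR of the longest coding transcript, had a fold of 26.3.

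SDC4 and GPC1 carried peaks at the start of the mRNA, each in a single list, and their coding parts are shown because they cover the start codon. The shCtrl peak of SDC4 (fold 409, exons 1 and 2) covers the first 198 coding bases, at chr20:45335783-45348384 on the minus strand, joined across the intron. The shNAT10 list had no peak there but one in the 3′ UTR with a fold of 140. The shNAT10 peak of GPC1 (fold 60.9, exon 1) covers the first 112 coding bases, at chr2:240435919-240436030 on the plus strand. The sequences are those of GENCODE v29 transcripts on GRCh38, written 5′ to 3′, with capitals where a C is followed by any 2 bases 4 times in a row (CNNCNNCNNCNN), searched on the transcribed strand.
SDC4 coding part of the shCtrl peak: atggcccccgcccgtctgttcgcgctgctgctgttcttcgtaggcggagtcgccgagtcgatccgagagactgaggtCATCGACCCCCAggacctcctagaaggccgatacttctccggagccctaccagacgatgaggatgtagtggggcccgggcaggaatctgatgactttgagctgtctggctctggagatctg
GPC1 coding part of the shNAT10 peak: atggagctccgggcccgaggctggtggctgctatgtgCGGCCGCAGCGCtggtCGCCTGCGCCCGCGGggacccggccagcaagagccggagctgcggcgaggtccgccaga

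Agrin and perlecan each had 1 stretch covered in both lists, shown here for that reason. On AGRN it has 91 bases, coding bases 4685 to 4775 (chr1:1050549-1050773, plus strand, exons 29 and 30), inside peaks with folds of 7.54 in shCtrl and 7.78 in shNAT10. On HSPG2 it has 121 bases, coding bases 8901 to 9021 (chr1:21842270-21842779, minus strand, exons 67 and 68), inside peaks with folds of 2.49 and 43.1. The AGRN peak with the most repeats of the pattern is added, a shCtrl peak of 180 bases over exons 5 and 6 (chr1:1041306-1041565, plus strand, fold 30.5) in which 77 bases lie in the pattern.
AGRN stretch in both lists: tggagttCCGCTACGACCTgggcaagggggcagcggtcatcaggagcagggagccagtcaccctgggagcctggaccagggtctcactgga
HSPG2 stretch in both lists: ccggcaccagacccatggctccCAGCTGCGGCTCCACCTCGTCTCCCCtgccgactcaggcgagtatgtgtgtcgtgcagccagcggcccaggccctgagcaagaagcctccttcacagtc
AGRN shCtrl peak over exons 5 and 6: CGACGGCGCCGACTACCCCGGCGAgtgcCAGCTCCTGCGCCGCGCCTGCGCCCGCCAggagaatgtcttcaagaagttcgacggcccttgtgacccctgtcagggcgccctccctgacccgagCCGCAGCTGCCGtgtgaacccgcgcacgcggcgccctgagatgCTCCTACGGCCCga

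On the genes other than SDC2, which was left out of this count, the pattern was found in 9 of the 10 shCtrl and 7 of the 8 shNAT10 peaks that lie wholly in the coding region with at most 300 bases, all but 1 of them on AGRN and HSPG2. Over all coding peaks of 150 to 300 bases it was found in 55.5% and 54.5%, and in 53.0% of 10964 windows of 180 bases from the middle of the coding regions of tested genes. These 2 genes are rich in G and C, and peaks of the same gene are not independent, so the counts are a description of these sequences and not of acetylated sites.

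The peaks with the highest fold on AGRN and HSPG2 in shCtrl were partly outside the mature mRNA. The AGRN peak with a fold of 364 has 96 of its 301 bases on the longest coding transcript, and lies whole only in AGRN-203, a transcript with a retained intron. The HSPG2 peaks with folds of 223 and 220 have 3 of 181 and 118 of 151 bases on it, the former lying whole only in the retained-intron transcript HSPG2-211. In shNAT10 the highest fold on HSPG2 was 803, over exons 89 to 95, with 449 of 511 bases on the longest coding transcript. The other shNAT10 peaks of HSPG2 had folds between 3.84 and 43.1, and the 6 of AGRN had folds between 2.05 and 14.3.

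CD44 had peaks of low fold enrichment. The shCtrl peak, in exon 5 (chr11:35189911-35190060, plus strand), had a fold of 1.62, which puts it at the 0.42 percentile of its list. The 3 shNAT10 peaks had folds of 3.13, 2.60 and 5.10, at percentiles between 3.37 and 11.5. The shCtrl peak and the nearest shNAT10 peak meet in 1 base near the end of exon 5, and that shNAT10 peak has 6 of its 181 bases on the longest coding transcript. It lies whole only in an annotated retained-intron transcript, and the next, over 3 blocks, only in the coding transcript CD44-211. The shCtrl peak is shown since it lies whole in 19 annotated transcripts, before the variable exons.
CD44 shCtrl peak in exon 5: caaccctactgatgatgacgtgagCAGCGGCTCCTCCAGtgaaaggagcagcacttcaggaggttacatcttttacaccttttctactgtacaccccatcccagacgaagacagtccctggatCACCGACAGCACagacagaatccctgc

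**Figure D5:**
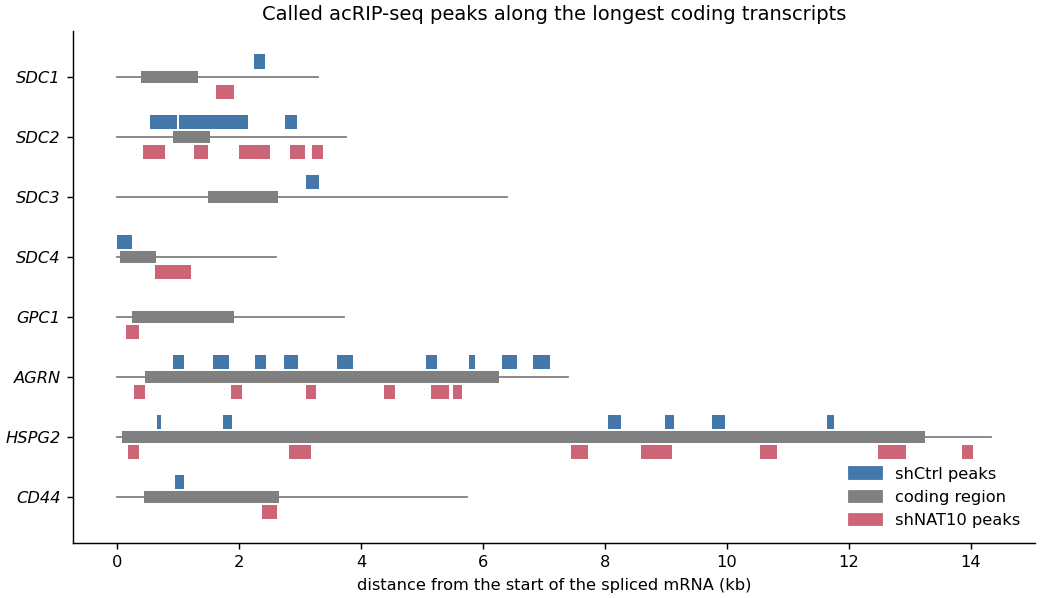
Called acRIP-seq peaks (shCtrl above, shNAT10 below each line) along the longest coding transcript of each gene, by distance from the start of the spliced mRNA in kb, with the coding region as a grey bar. Only bases on that transcript are drawn, so parts in retained introns are missing. Peaks crowd on AGRN, HSPG2 and SDC2, and few of them face a peak of the other list.

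By midpoint on the longest coding transcript, 13 of the shCtrl peaks lay in the coding region, 6 in the 3′ UTR and 1 in the 5′ UTR, and 3 could not be placed. In shNAT10 there were 15, 6 and 2, with 1 not placed. Over all placed peaks 59.1% in each list lay in the coding region and 37.5% and 37.4% in the 3′ UTR.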

How the data were processed

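Libraries were put in groups by their labels, and the files were used as deposited. The submitters' processing notes name HISAT2, HTSeq 0.11.0 and the build GRCh38. The authors deposited FPKM per Ensembl gene, 1 column per RNA-seq library. For acRIP-seq the authors deposited 1 peak list per group, giving for every peak a ratio of IP to input (fold enrichment), a p-value, and the logarithm of that p-value to base 10, held as a score. The peak caller is not given in the sources used here. The libraries were made with strand kept, but how strand was used in counting is not given.

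Expression was tested with limma 3.58.1 (R 4.3.3) on log2 of FPKM plus 0.1, keeping genes that reached an FPKM of 1 in 3 or more of the 6 libraries. The fit used a mean-variance trend, and p-values were adjusted by Benjamini-Hochberg over all 12982 genes tested. Fold changes are on that scale and understate changes of low genes. Calls needed an adjusted p under 0.05. Shares were compared by two-sided exact permutation tests in SciPy 1.17.1. Whole reads were recovered from the FPKM steps for all 12982 tested genes, within 0.02 reads, and entered 1 alternative. In every pair of replicates the reads differed by more than counting noise. The chi-square per degree of freedom was 7.54 to 52.3 in shCtrl pairs, highest with replicate 2, and 2.25 to 3.59 in shNAT10 pairs. The limma fit took a common variance for both groups. The number of libraries and of reads limits the precision, and depth behind the peaks is unknown.

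Each peak was placed by its midpoint on the gene's longest coding transcript in GENCODE v29, and peaks of both lists that share at least 1 base on the same strand counted as overlapping. Sequences were read from GENCODE v29 transcripts. Scripts were tested on simulated data.

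The 8 genes and the role and marker lists were chosen with earlier results of these data known. Named from each role list were the genes called, at most the 3 largest rises and 3 largest falls. Results of 2 listed genes are not reported here. Alternatives were a pseudocount of 1, no filter, an FPKM of at least 5, quantile normalization, median centring, TPM, a replicate block, no mean-variance trend, each library left out, the 50% of peaks with the highest fold or lowest p-values, a reciprocal overlap of 50%, and the transcript with the longest coding region. Chosen after seeing the data were voom on the recovered reads and splines that took transcript length and GC content out of each library.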

Additional observations from a re-analysis of the deposited data

How the results depend on the processing

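SDC1, SDC4 and AGRN kept their direction and their call in each of the 16 alternative settings. The count of the 8 genes that rose was between 3 and 6 when a library was left out, lowest without shCtrl replicate 3 or shNAT10 replicate 1, and the count that fell stayed at 0. Over these fits the log2 fold change was 0.23 to 0.31 for SDC2, 0.34 to 0.47 for GPC1, 0.18 to 0.27 for CD44 and -0.0259 to 0.35 for HSPG2, which was below 0 only without shCtrl replicate 2. CD44 lost its call at 0.24 without the filter, at 0.24 without the mean-variance trend and at 0.11 with the length and GC correction. The cause of these changes was not tested. SDC3 turned to 0.0838 on the TPM scale, which shifted the median of all genes by 0.11. The change of the SDC1 share stayed between 10.5 and 12.1 percentage points.

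Among the role list genes, 9 to 19 rose and 15 to 24 fell when a library was left out, and 13 fell with an FPKM of at least 5, where fewer genes were tested. With the length and GC correction the log2 fold change was 0.23 for FAM20B, 0.33 for SLC26A2 and -0.34 for GPC2, and with a pseudocount of 1 it was -0.56 for SDCBP2, -0.31 for GPC2 and -0.56 for SPOCK2. Of the 35 calls, 23 held in every setting in which the gene was tested. Calls over all genes also became fewer without shCtrl replicate 3 (1978 rose) or a shNAT10 library (1774 to 1829 rose).

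Correlations of same-numbered deviations were -0.04, 0.06 and 0.11, which does not show whether the replicate numbers pair the libraries. Of the shCtrl libraries, replicate 1 correlated best with shNAT10 replicate 3 (0.06), and replicates 2 and 3 with their own numbers. With the replicate number as a block 6 of the 8 genes rose, as did 16 of the role list genes, and 19 fell.

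With the 50% of peaks of highest fold enrichment, 8 shCtrl and 7 shNAT10 peaks remained on the 8 genes, and with the 50% of lowest p-values 13 and 9. A reciprocal overlap of 50% left 2 overlapping peaks in each list. Placing peaks on the transcript with the longest coding region gave 13 and 16 in the coding region, and the SDC3 peak could not be placed on it. With 1 peak list per group, neither the spread between replicates nor the reads behind a peak can limit these counts, and a missing peak does not show missing acetylation.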
